A study of Mus musculus with 9 samples.

Results

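Kinesins are motor proteins that hydrolyse ATP and, in most cases, walk along microtubules, and the genes of the family are named Kif. Of the 18193 mouse genes read by single-symbol probe sets, 37 carried a symbol made of Kif and a number, and for each the probe set that was brightest on average over the 9 arrays was used. The 37 genes had 99 such probe sets, 25 genes had more than 1, and all 37 matched a RefSeq gene by Entrez identifier. The Kifc genes, which encode minus-end-directed kinesins, are outside this naming pattern. The genes were chosen with earlier results of these arrays known, Kif12 because of its pattern over the groups, so the values of Kif12 are a description with no test.

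The arrays hold RNA of epithelial cells from small intestine and proximal colon of mouse pups at postnatal day 0, 3 arrays per genotype. Rescue pups were Tfr1 IEC-KO and also carried a ROSA26 Tfr1R654A/+ allele. Knockout pups were Tfr1 IEC-KO, an intestinal epithelial cell knockout of Tfr1, the transferrin receptor that brings iron into cells. Control pups were Tfr1fl/fl, with floxed Tfr1 alleles. No pup had a drug treatment. Tissue stood in 2 mM EDTA for 30 min, and freed cells went through a 70 µm mesh. No sort of the cells is named. The labels name neither the Cre driver nor the strain, and they do not say whether an array holds 1 pup or a pool, so p-values measure only the spread between arrays, which may be technical.

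In dividing cells, mitotic kinesins build the spindle, move chromosomes and complete the division of the cell. Transport kinesins carry vesicles, organelles and protein complexes, mostly toward the plus ends of microtubules, which in polarised gut epithelium lie toward the basal side. Further kinesins act in cilia and Hedgehog signalling, or shorten microtubules without walking on them. Here 11 of the 37 genes were classed as mitotic, 15 as transport, 5 as cilium and Hedgehog kinesins and 6, with Kif12, as other. Kif12 is a little-studied member.

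The 250 bases before the start of a gene were searched on both strands for motifs known from promoters of mitotic genes, the CCAAT box and the cell cycle genes homology region. The CCAAT box was searched by the letters CCAAT and the homology region by TTTGAA or TTCGAA, and no letter is shared between the matches printed. Sequences are from RefSeq on GRCm38.p6, read 5′ to 3′ toward the start, in lower case with every match in capitals. A match on the opposite strand reads ATTGG for CCAAT and TTCAAA for TTTGAA. Kif12 is shown because it had the largest differences of the family. Kif11 and Kif22 are shown because, by the probe sets used, they are bright mitotic members that hold both mitotic motifs. Kif1b, by the first of its 2 windows, is shown because it passed the test in 2 comparisons.
Kif12, chr4:63172132-63172381, minus strand: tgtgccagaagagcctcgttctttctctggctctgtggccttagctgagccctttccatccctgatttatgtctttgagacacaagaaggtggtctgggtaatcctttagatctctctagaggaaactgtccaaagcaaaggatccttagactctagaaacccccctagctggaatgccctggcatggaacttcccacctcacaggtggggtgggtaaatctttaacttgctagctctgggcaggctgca
Kif11, chr19:37376132-37376381, plus strand: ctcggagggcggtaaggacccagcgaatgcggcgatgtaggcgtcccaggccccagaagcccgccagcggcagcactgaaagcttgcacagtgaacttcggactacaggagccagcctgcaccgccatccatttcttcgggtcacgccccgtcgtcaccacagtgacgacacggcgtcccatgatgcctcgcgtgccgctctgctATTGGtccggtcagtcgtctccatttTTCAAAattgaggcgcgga
Kif22, chr7:127042421-127042670, minus strand: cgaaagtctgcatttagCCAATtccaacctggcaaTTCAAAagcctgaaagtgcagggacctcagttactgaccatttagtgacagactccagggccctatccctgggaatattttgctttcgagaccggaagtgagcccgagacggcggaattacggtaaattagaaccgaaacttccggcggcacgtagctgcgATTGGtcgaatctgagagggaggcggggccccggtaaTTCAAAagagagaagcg
Kif1b, chr4:149307699-149307948, minus strand: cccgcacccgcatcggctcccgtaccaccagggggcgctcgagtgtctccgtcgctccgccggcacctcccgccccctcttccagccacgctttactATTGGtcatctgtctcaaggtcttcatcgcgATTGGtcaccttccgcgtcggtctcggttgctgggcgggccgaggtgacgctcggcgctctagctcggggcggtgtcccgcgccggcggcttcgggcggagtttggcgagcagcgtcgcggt
The Kif12 window held none of these motifs, which says only that the letters are not in this window. CCAAT lay in 33.8% of the 32851 mouse promoter windows of this length, either form of the homology region in 17.1% and both kinds together in 6.02%. Among 10 mitotic genes with a window, 6 held CCAAT (Kif4, Kif11, Kif14, Kif18b, Kif22 and Kif23), 5 held TTTGAA (Kif2c, Kif11, Kif14, Kif15 and Kif22) and 3 held both. Among 11 transport genes, 3 held CCAAT (Kif1b, Kif3a and Kif3b), 1 held the homology region (Kif1a) and 0 held both. Matches are a description of the letters, not evidence that a factor binds.

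Before the members are described, a few facts of the whole set bear on them. Values are log2 RMA values as deposited, on which 1 unit is a doubling, and a level of one gene's probe set is not compared with that of another gene. Knockout arrays varied more among themselves than the others, with a median SD over genes of 0.225, against 0.14 in rescue arrays and 0.104 in control arrays. Each of 16 epithelial markers was above the dimmest 40% of genes on every array. Fibroblast markers lay at a median of 3.66, 2.91 and 0.18 above the control mean on knockout arrays 1, 2 and 3, and neuron and glia markers at 2.73, 1.46 and 0.20. On rescue arrays the fibroblast medians were 0.61, 0.49 and 0.25. Pancreas markers were high on knockout array 2 (2.14) and rescue array 3 (1.38). Xist, expressed in female cells, measured 6.45 to 6.83 on rescue arrays, 12.02 to 12.75 on knockout arrays and 12.10 to 12.31 on control arrays, and Y-linked Eif2s3y measured 9.36 to 9.70, 2.34 to 2.82 and 2.69 to 2.88 on them. Kdm5d, also Y-linked, was at 4.36 to 4.67 on rescue arrays, 4.31 to 4.40 on knockout arrays and 4.16 to 4.36 on control arrays. In each comparison with rescue arrays, sex and genotype cannot be told apart. Of 3 probe sets of Tfrc, the gene of Tfr1, the brightest measured 10.91, 10.22 and 11.11 on rescue arrays, 10.76, 11.16 and 9.07 on knockout arrays and 10.21, 10.78 and 9.88 on control arrays. The other 2 were higher on rescue arrays, with means of 10.85 and 8.83, than on knockout arrays, at 5.88 and 4.31, or control arrays, at 6.15 and 4.67. Where these probe sets lie relative to the deleted part is not given in the sources used here, so they do not check the deletion.

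Kif12, on chromosome 4, was low on every knockout array and intermediate on every rescue array. Its brighter probe set measured 7.90, 7.99 and 8.58 on rescue arrays, 5.48, 6.10 and 5.74 on knockout arrays and 9.60, 9.45 and 9.55 on control arrays. The 3 groups did not overlap: every rescue array lay above every knockout array and below every control array. The means were 8.16 ± 0.37 in rescue arrays, 5.78 ± 0.31 in knockout arrays and 9.54 ± 0.077 in control arrays (SD, n = 3 each).

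Kif12 was at least 13.6-fold lower in knockout than in control arrays, a log2 difference of -3.76, and the nearest arrays of these groups were 3.35 apart. By size this difference had rank 19 among the 18193 genes and rank 1 among the kinesins. Between rescue and knockout arrays the difference was 2.38, at least 5.22-fold, with rank 34 and a smallest gap of 1.80. Between rescue and control arrays it was -1.38, a 2.60-fold lower level in rescue arrays, with rank 78 and a smallest gap of 0.87. The folds against knockout arrays are lower limits, because the knockout mean lay in the dimmest 40% of genes, where background flattens differences.

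The second probe set of Kif12 gave the same order of groups with smaller differences. It measured 6.07, 6.38 and 6.73 on rescue arrays, 5.42, 5.41 and 5.40 on knockout arrays and 7.24, 7.23 and 7.09 on control arrays. Its log2 differences were -1.78 for knockout minus control, 0.98 for rescue minus knockout and -0.79 for rescue minus control. The 3 groups again did not overlap. The name of the brighter probe set ends in _s_at, which marks a probe set that may read several transcripts, and the second one carries no such mark.

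**Figure D1:**
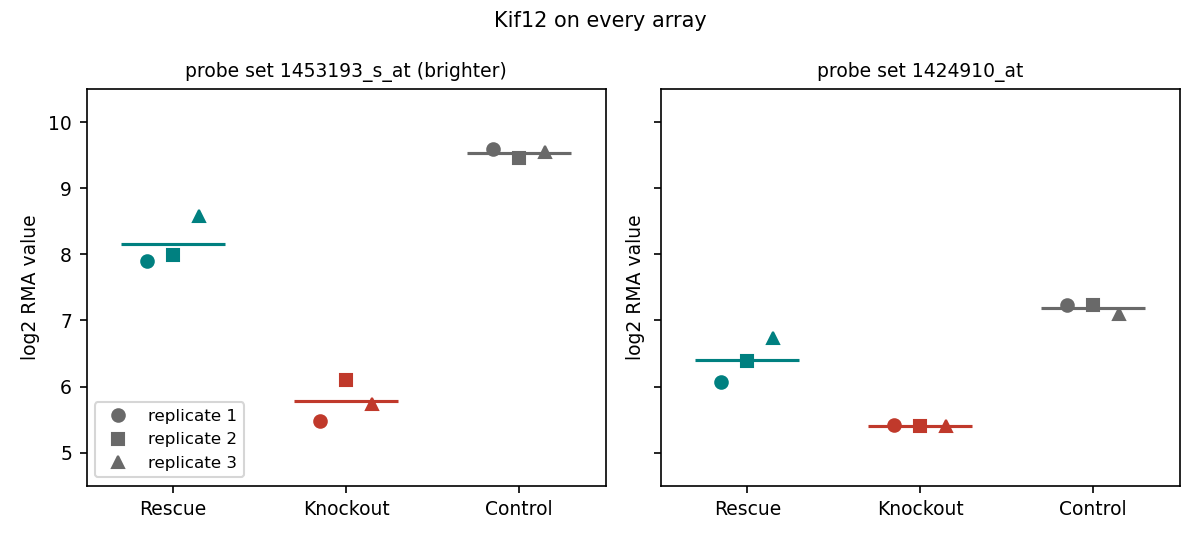
The log2 RMA value of Kif12 (vertical axis) is plotted for rescue, knockout and control arrays (horizontal axis), with 1 panel per probe set, 1 point per array and a bar at each mean. On the brighter probe set the knockout arrays sit between 5.48 and 6.10, below the rescue arrays at 7.90 to 8.58 and the control arrays at 9.45 to 9.60.

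The low Kif12 value was also present on the knockout array with the lowest fibroblast markers. Knockout array 3, with a fibroblast marker median of 0.18 and a summed level of 4270, had a Kif12 value of 5.74, and with it as the sole knockout array the difference from control arrays was -3.80. With the fibroblast markers as a covariate, the difference was -3.68, and these markers themselves differed between knockout and control arrays. The summed neuron and glia level of knockout array 3 was 6330, against 3420 to 3670 on control arrays. The part of other cells in the Kif12 difference was not tested. In such bulk samples, fewer cells of a type and less RNA per cell cannot be told apart.

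Genes outside the family were ordered by how closely their values followed those of Kif12 over the 9 arrays, each gene set against its own control mean. The measure was the root mean square difference in log2 units, with a median of 2.28 over 10894 candidate genes. The closest was Sapcd2, a regulator of spindle orientation in mouse epithelia, at 0.34. Sapcd2 measured 8.63, 9.38 and 9.80 on rescue arrays, 6.34, 6.39 and 7.17 on knockout arrays and 10.40, 10.41 and 10.53 on control arrays, so its groups did not overlap either. The next were St3gal1, a sialyltransferase, at 0.57, Tert, the telomerase reverse transcriptase, at 0.60, and Akr1c14, an aldo-keto reductase, at 0.61. Myorg, a glycosidase, also stood at 0.61, and Fbp1, an enzyme of gluconeogenesis, at 0.63. Fbp1 averaged 12.02 in rescue arrays, 9.51 in knockout arrays and 12.99 in control arrays. These 6 were picked for their likeness, so no test is given.

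Transcription factors of intestinal and liver epithelium were listed beside Kif12, and 10 are reported. Cdx1, a homeobox factor of intestinal epithelium, measured 7.93, 7.52 and 8.14 on rescue arrays, 7.05, 6.44 and 6.78 on knockout arrays and 8.30, 8.22 and 8.39 on control arrays. It was 2.92-fold lower in knockout than in control arrays (log2 difference -1.54 ± 0.19 SE, adjusted p = 0.0023) and 2.15-fold higher in rescue than in knockout arrays (adjusted p = 0.030). Cdx2, its close relative, was 1.67-fold lower in knockout than in control arrays (adjusted p = 0.011), and Foxa1 was 1.92-fold higher (adjusted p = 0.047). Thus 1 of the 10 rose and 2 fell in knockout arrays, where 14.1% of all genes passed the test. Hnf4a, a nuclear receptor of gut and liver epithelium, measured 11.11, 11.57 and 11.99 on knockout arrays and 12.25, 12.37 and 12.25 on control arrays. These 2 groups did not overlap, and the Hnf4a difference of -0.73 ± 0.21 did not pass the test (adjusted p = 0.053). Its rescue arrays, at 11.71, 11.99 and 12.17, overlapped the knockout arrays. Between rescue and control arrays 0 of the 10 passed the limma test, and 3 had an unadjusted p under 0.05, against 0.126% and 6.62% of all genes.

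Of the 36 kinesins other than Kif12, 2 were higher and 1 was lower in knockout than in control arrays at an adjusted p under 0.05. That is 8.33% of them, against 14.1% of all genes, of which 5.29% were higher and 8.77% lower. At an unadjusted p under 0.05 there were 11 members, with 30.1% of all genes. Of the 36, 13 had knockout and control arrays that did not overlap, 9 of them higher and 4 lower in knockout arrays. This is 36.1%, against 32.4% of all genes, of which 12.7% lay higher and 19.7% lower. The median difference was 0.15, against -0.04 over all genes, and 26 of the 36 differences were above 0. Without knockout array 3 the limma test called 12 members, with 4998 of the 18193 genes. Without control array 1 or 3 it called 1 member, with 1102 and 936 genes.

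Between rescue and knockout arrays 0 of the 36 were higher and 1 was lower, or 2.78%, against 2.31% of all genes, of which 1.23% were higher and 1.08% lower. An unadjusted p under 0.05 was reached by 5 members and 18.9% of all genes. The groups did not overlap for 8 members, or 22.2%, against 18.1% of all genes. Without knockout array 3 the count of members called was 6, with 2793 of the 18193 genes. Between rescue and control arrays limma called 0 of the 36, against 0.126% of all genes, and 3 had an unadjusted p under 0.05, as did 6.62% of all genes. Here the groups did not overlap for 6 members, or 16.7%, against 16.6% of all genes. The lowest adjusted p of a member in this comparison was 0.41. The comparisons share arrays, so they are not independent of each other.

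No filter on low values was used. By the mean over 9 arrays, 22 of the 37 genes lay above the dimmest 40% of genes and 15 within it, 4 of them mitotic and 4 of them transport kinesins.

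**Figure D2:**
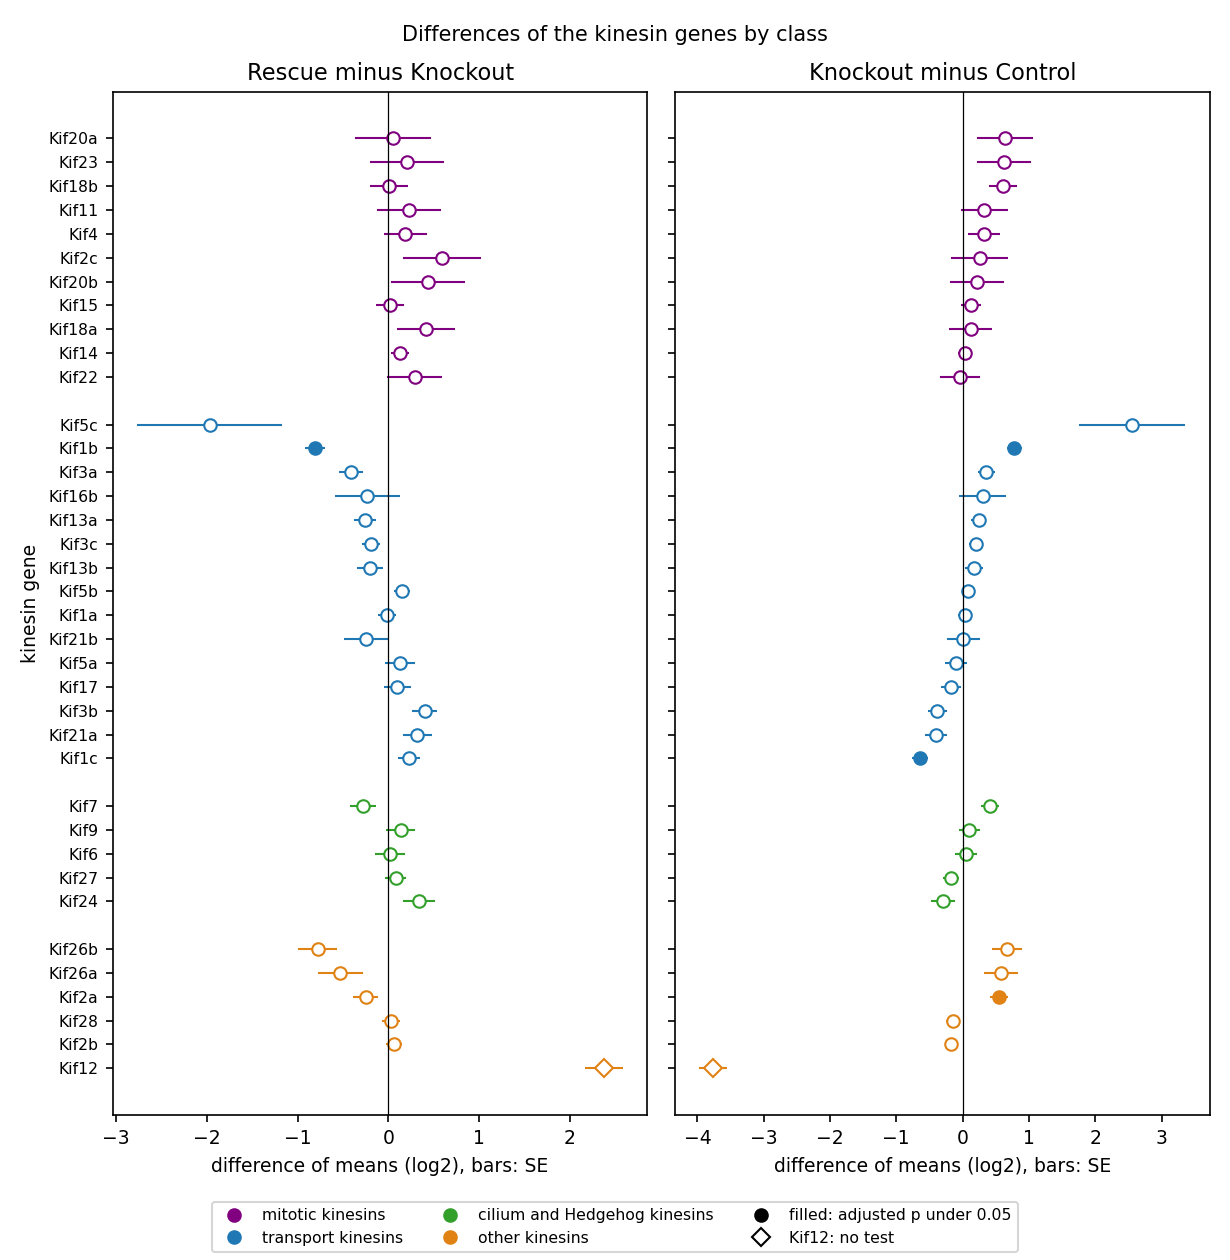
The log2 difference of means (horizontal axes) is plotted for each of the 37 kinesin genes (vertical axis, grouped by class), rescue minus knockout on the left and knockout minus control on the right. Points are limma estimates, bars are ± 1 SE, and filled points mark an adjusted p under 0.05. Kif12, drawn as a diamond with no test, lies farthest from 0 in both panels, at 2.38 and -3.76.

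Kif1b, which carries synaptic vesicle precursors in neurons and mitochondria in many cells, was higher in knockout arrays than in both other groups. It measured 9.02, 8.87 and 8.95 on rescue arrays, 9.79, 9.63 and 9.85 on knockout arrays and 8.83, 9.10 and 8.98 on control arrays. Every knockout array lay above every array of the other groups, and rescue and control arrays overlapped.

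Kif1b was 1.72-fold higher in knockout than in control arrays (log2 difference 0.78 ± 0.11 SE, adjusted p = 0.0032) and 1.75-fold lower in rescue than in knockout arrays (-0.81 ± 0.11, adjusted p = 0.011). Between rescue and control arrays the difference was -0.02 ± 0.11 (adjusted p = 1). Kif1b was read by 7 probe sets, and in knockout minus control all 7 differences were above 0, between 0.17 and 0.78. In a test over all probe sets, 2 of the 7 passed. The knockout array with the lowest fibroblast markers, array 3, held the highest Kif1b value of the 9 arrays. With the fibroblast covariate the difference from control arrays was 0.83 (adjusted p = 0.017). Whether other cells had a part was not tested for Kif1b. Its rise over control arrays passed the test under all 20 alternatives tried. Its fall in rescue arrays passed under 17 of 20, and the adjusted p was 0.063 with the mean of the gene's probe sets and 0.068 with only the groups compared. In the third case, without rescue array 3, it was 0.050 after rounding.

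Kif1c, a motor related to Kif1b that acts in vesicle transport, was lower in knockout than in control arrays. It measured 9.33, 9.44 and 9.64 on rescue arrays, 9.15, 9.23 and 9.32 on knockout arrays and 9.99, 9.69 and 9.95 on control arrays. Rescue arrays lay above knockout arrays and below control arrays without overlap. Kif1c fell 1.56-fold in knockout arrays against control arrays (-0.64 ± 0.12 SE, adjusted p = 0.012). The other comparisons did not pass, with 0.23 ± 0.12 for rescue minus knockout (adjusted p = 0.34) and -0.41 ± 0.12 for rescue minus control (adjusted p = 0.41). All 4 probe sets gave a difference below 0 in knockout minus control, from -0.64 to -0.09, and 1 of the 4 passed the test over all probe sets. The fall did not pass with the mean of the probe sets (adjusted p = 0.057), with the fibroblast covariate (0.098), with knockout array 3 as the sole knockout array (0.075), or without control array 1 (0.053) or 3 (0.059).

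Kif2a, a kinesin that takes microtubules apart from their ends, was higher in knockout than in control arrays. It measured 8.34, 8.32 and 8.33 on rescue arrays, 8.82, 8.56 and 8.36 on knockout arrays and 7.82, 8.18 and 8.07 on control arrays. The rescue arrays were nearly equal to each other and lay between the other groups. Kif2a rose 1.47-fold in knockout arrays (0.55 ± 0.14 SE, adjusted p = 0.032), and 4 of its 5 probe sets had a difference above 0. The knockout values ran in the order of the fibroblast markers, highest on array 1 and lowest on array 3. Other Kif2a probe sets did not all keep this order. On knockout arrays 1, 2 and 3, 1 of them measured 8.19, 8.01 and 7.98 and another 6.35, 6.87 and 6.98. With the fibroblast covariate the difference was 0.25 (adjusted p = 0.33), and these markers themselves differed between knockout and control arrays. Whether other cells had a part was not tested for Kif2a. The rise passed the test under 7 of 20 alternatives.

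**Figure D3:**
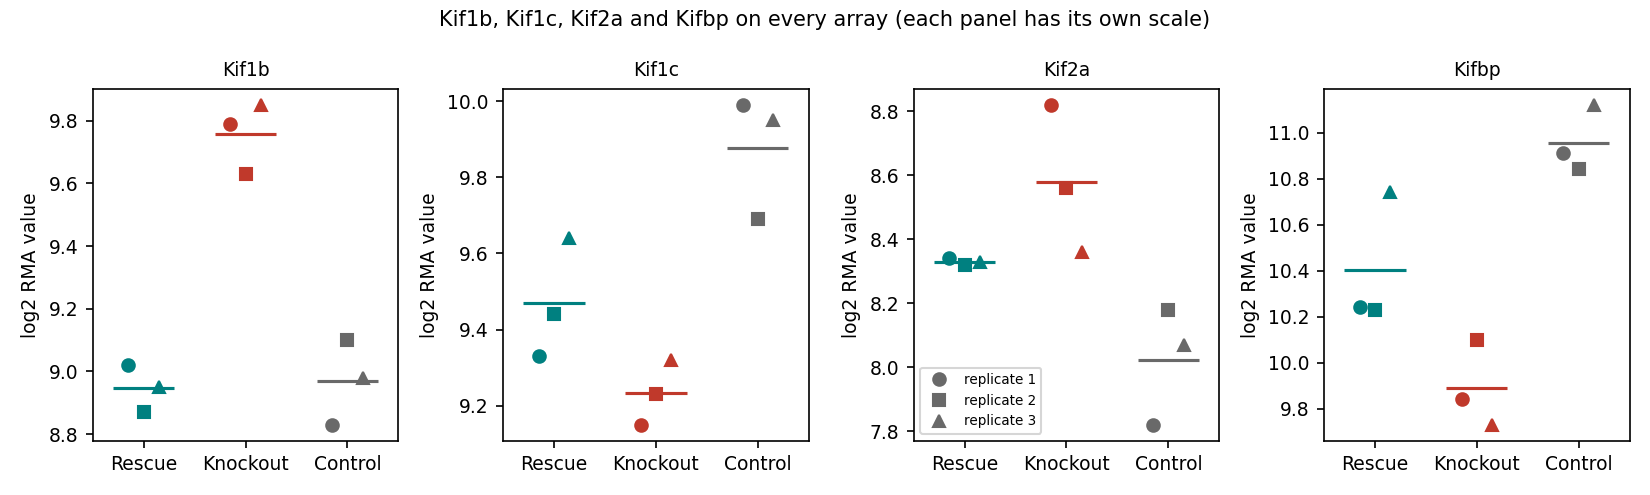
The log2 RMA values of Kif1b, Kif1c, Kif2a and the kinesin-binding protein gene Kifbp (vertical axes, 1 scale per panel) are plotted for rescue, knockout and control arrays, with 1 point per array and a bar at the mean. Knockout arrays lie above control arrays for Kif1b and Kif2a and below them for Kif1c and Kifbp.

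Of the 15 transport kinesins, 1 rose and 1 fell in knockout against control arrays (Kif1b and Kif1c), or 13.3%, against 14.1% of all genes. At an unadjusted p under 0.05 there were 6, with 30.1% of all genes, and the groups did not overlap for 6, or 40%, against 32.4% of all genes. The median difference was 0.08, and 10 of the 15 differences were above 0. In rescue minus knockout 1 fell (Kif1b), where 2.31% of all genes were called, and the median was -0.19. There 4 of the 15 had an unadjusted p under 0.05, with 18.9% of all genes. The groups did not overlap for 6, or 40%, against 18.1% of all genes. In rescue minus control 0 passed the limma test and 2 had an unadjusted p under 0.05, against 0.126% and 6.62% of all genes. The median there was -0.02, and the groups did not overlap for 2, or 13.3%, against 16.6% of all genes. The median of the class on single arrays lay between -0.04 and 0.09 over the control mean on all 9 arrays.

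Kif5b, the widely expressed heavy chain of kinesin-1, measured 11.45, 11.24 and 11.36 on rescue arrays, 11.23, 11.23 and 11.13 on knockout arrays and 11.20, 11.12 and 11.03 on control arrays. Knockout and control arrays overlapped, and their difference was 0.08 ± 0.09 SE (adjusted p = 0.62). Rescue arrays lay above both, by 0.24 over control arrays (adjusted p = 0.67), and this difference did not pass the test. Kif21b, a motor best known from neurons and lymphocytes, measured 9.25, 9.20 and 9.10 on rescue arrays, 9.02, 9.20 and 10.07 on knockout arrays and 9.51, 9.22 and 9.54 on control arrays. Its value was high on knockout array 3 and its groups overlapped, with a difference of 0.01 ± 0.25 between knockout and control arrays (adjusted p = 0.99). With knockout array 3 as the sole knockout array, and with the fibroblast covariate, Kif21b passed the test, with 0.64 (adjusted p = 0.038) and 0.70 (adjusted p = 0.045).

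Kif5c, the kinesin-1 heavy chain known from neurons, had the widest spread. It measured 5.97, 5.38 and 5.07 on rescue arrays, 9.44, 7.25 and 5.63 on knockout arrays and 5.00, 4.34 and 5.31 on control arrays. Knockout arrays lay above control arrays without overlap, but spanned 3.82 log2 units among themselves. The difference between knockout and control arrays was 2.56 ± 0.80 SE, at least 5.90-fold, and did not pass the test (adjusted p = 0.068). Between rescue and knockout arrays it was -1.97 ± 0.80 (adjusted p = 0.24). Of its 3 other probe sets, 1 measured 7.68, 6.57 and 5.65 on knockout arrays 1, 2 and 3, in the same order, and the others had differences of 0.04 and -0.03 in knockout minus control. With the mean of the 4 probe sets the difference was 0.93 (adjusted p = 0.083). A Kif5a probe set that was not used ran in the same order, with 7.83, 6.12 and 4.98 on knockout arrays 1, 2 and 3. Its difference in knockout minus control was 1.96 ± 0.58 SE (adjusted p = 0.071 in the test over all probe sets). The Kif5a probe set used had a difference of -0.10 and the third -0.05. Kif5a was picked after its values were seen.

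The median of neuron and glia markers was high on the knockout arrays where Kif5c was high. Over 16 such markers, the median above the control mean was 2.73, 1.46 and 0.20 on knockout arrays 1, 2 and 3, and their summed level was 3210 to 4550 on rescue arrays, 8000, 4440 and 6330 on knockout arrays 1, 2 and 3 and 3420 to 3670 on control arrays. The sum thus did not follow Kif5c, as it was higher on knockout array 3 than on array 2. Of these markers, 8 to 10 lay in the dimmest 40% on rescue arrays, 4 to 9 on knockout arrays and 9 on control arrays. With the fibroblast markers as a covariate the Kif5c difference was 0.31 (adjusted p = 0.82), and with knockout array 3 alone it was 0.74 (adjusted p = 0.30). Without knockout array 3 it was 3.47 and passed the test (adjusted p = 0.0043). The part of the neuron and glia markers in this result was not tested.

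**Figure D4:**
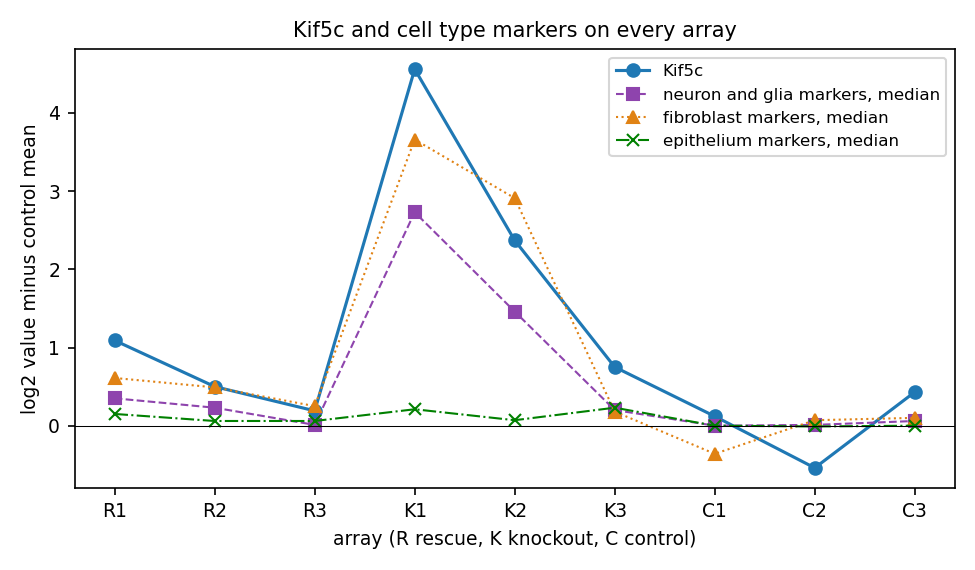
The log2 value minus the control mean (vertical axis) is plotted on each array (horizontal axis) for Kif5c and for the medians of the neuron and glia, fibroblast and epithelium marker lists. Kif5c and the first 2 lists are highest on knockout array 1, while the epithelium median stays between -0.01 and 0.23. Single epithelium markers moved more: limma called 6 of the 16 higher and 1 lower in knockout against control, where 14.1% of all genes were called.

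The kinesin-2 motors, which move cargo within cilia and in the cytoplasm, did not pass the test in any comparison. Kif3a measured 6.62, 6.41 and 6.86 on rescue arrays, 7.02, 7.12 and 6.97 on knockout arrays and 6.78, 6.65 and 6.60 on control arrays, with knockout arrays above the others. Its difference in knockout minus control was 0.36 ± 0.13 SE (adjusted p = 0.090). Its partner subunit Kif3b had a difference of -0.38 ± 0.14 (adjusted p = 0.11), with overlapping groups. Kif3a, Kif3b and the other members described from here to the partners that are not among the 4 brightest of their class were picked after their values were seen.

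The mitotic kinesins did not pass the test in any comparison, and most of their differences had the same sign. In knockout minus control limma called 0 of the 11, 1 had an unadjusted p under 0.05, 10 differences were above 0 and the median was 0.26. In rescue minus knockout 0 were called, 0 had an unadjusted p under 0.05, all 11 differences were above 0 and the median was 0.21. In rescue minus control 0 were called, 1 had an unadjusted p under 0.05, all 11 were above 0 and the median was 0.56. Over all genes, 43.9%, 57.1% and 47.6% of differences were above 0 in these comparisons, with medians of -0.04, 0.04 and -0.01. Limma called 14.1%, 2.31% and 0.126% of all genes in them, and 30.1%, 18.9% and 6.62% had an unadjusted p under 0.05. The groups did not overlap for 2 of the 11 in knockout against control arrays (Kif18b and Kif4), or 18.2%, against 32.4% of all genes. In rescue against control arrays this held for 1 (Kif18b), or 9.09%, against 16.6% of all genes.

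The class also differed between arrays of the same genotype. Its median over the control mean was 0.64, 0.04 and 1.10 on rescue arrays 1, 2 and 3, 0.55, 0.38 and -0.09 on knockout arrays and 0.00, 0.25 and -0.11 on control arrays. Rescue array 2 was the lowest rescue array for all 11 genes and rescue array 3 the highest for 9 of them, where these shares were 28.1% and 32.6% over all genes. Knockout array 3 was the lowest knockout array for 9 of the 11, against 33.2% of all genes.

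The medians moved when single arrays were left out. In knockout minus control the median was 0.54 without knockout array 3, 0.12 without knockout array 1 and 0.07 without control array 3. In rescue minus control it was 0.89 without rescue array 2 and 0.26 without rescue array 3. In rescue minus knockout it was 0.53 without rescue array 2, 0.42 without knockout array 1, 0.06 without knockout array 3 and -0.01 without rescue array 3. With the fibroblast covariate the median in knockout minus control was -0.15.

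Kif22, a chromokinesin that pushes chromosome arms toward the spindle equator, measured 9.59, 9.30 and 10.44 on rescue arrays, 9.90, 9.53 and 9.03 on knockout arrays and 9.52, 9.63 and 9.45 on control arrays. The groups overlapped, and the difference in knockout minus control was -0.04 ± 0.30 SE (adjusted p = 0.95). The name of this Kif22 probe set ends in _x_at, so it may read several transcripts, and its control mean was 9.53. The others of the 3 Kif22 probe sets had control means of 6.37 and 6.11, with differences of -0.14 and -0.17 in knockout minus control. Kif11, the motor that drives spindle poles apart, measured 7.30, 6.49 and 7.79 on rescue arrays, 7.34, 7.01 and 6.54 on knockout arrays and 6.76, 6.91 and 6.22 on control arrays. Its groups overlapped in every comparison, with differences of 0.33 ± 0.35 for knockout minus control (adjusted p = 0.59) and 0.56 ± 0.35 for rescue minus control (adjusted p = 0.96). Kif11 and Kif22 shared the high value on rescue array 3 and the low value on knockout array 3. A link of this pattern to promoter motifs was not tested.

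Kif23, the motor of the centralspindlin complex needed for cytokinesis, measured 7.48, 6.49 and 7.63 on rescue arrays, 7.45, 7.40 and 6.13 on knockout arrays and 6.13, 6.71 and 6.27 on control arrays. Knockout array 3 was as low as the lowest control array, and the difference in knockout minus control was 0.62 ± 0.41 SE (adjusted p = 0.35). Without knockout array 3 it was 1.05 and passed the test (adjusted p = 0.045). Kif2c, which depolymerises microtubules at centromeres, measured 7.21, 6.51 and 8.05 on rescue arrays, 6.97, 7.05 and 5.99 on knockout arrays and 6.58, 6.75 and 5.91 on control arrays. Its difference in rescue minus control was 0.84 ± 0.43 (adjusted p = 0.86), with overlapping groups, and 0.10 without probe sets that may read several transcripts. Kif18b, which controls astral microtubules, measured 6.58, 6.33 and 6.93 on rescue arrays, 6.78, 6.79 and 6.22 on knockout arrays and 5.99, 6.18 and 5.79 on control arrays. Control arrays lay below all others, and neither the difference in knockout minus control, 0.61 ± 0.21 (adjusted p = 0.084), nor that in rescue minus control, 0.62 ± 0.21 (adjusted p = 0.51), passed the test. The X-linked Kif4 had a difference of 0.32 ± 0.24 in knockout minus control (adjusted p = 0.42).

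**Figure D5:**
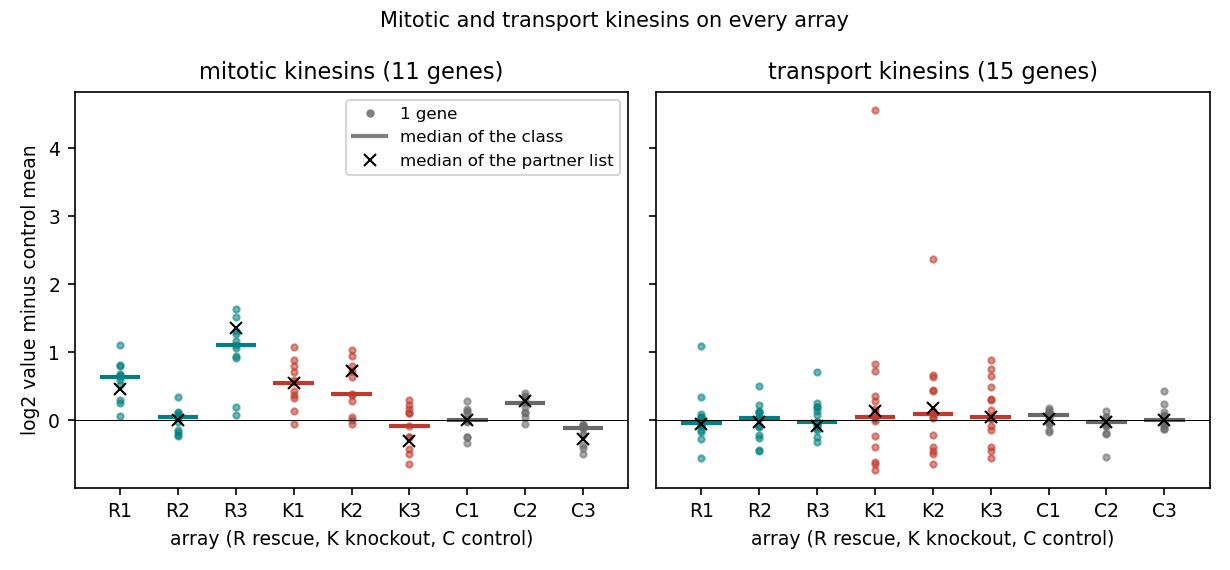
The log2 value minus the control mean (vertical axis) is plotted on each array (horizontal axis) for the 11 mitotic and 15 transport kinesins, with 1 point per gene, a bar at the class median and a cross at the median of the partner list. The mitotic bars run from -0.11 to 1.10 and the transport bars from -0.04 to 0.09.

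The 5 cilium and Hedgehog kinesins had 0 calls in all 3 limma comparisons, with 1 unadjusted p under 0.05 in knockout minus control and 0 in the others. Of all genes, 14.1% were called in knockout against control, 2.31% in rescue against knockout and 0.126% in rescue against control. An unadjusted p under 0.05 was reached by 30.1%, 18.9% and 6.62% of all genes. For these 5 kinesins the values were as follows. Their median differences were 0.05 for knockout minus control, 0.08 for rescue minus knockout and 0.07 for rescue minus control. Kif7, a regulator of Hedgehog signalling at the cilium tip, measured 6.44, 6.44 and 6.08 on rescue arrays, 6.77, 6.61 and 6.42 on knockout arrays and 6.17, 6.10 and 6.30 on control arrays. Knockout arrays lay above control arrays, and the difference of 0.41 ± 0.14 SE did not pass the test (adjusted p = 0.084). The 4 others, Kif6, Kif9, Kif24 and Kif27, had differences between -0.29 and 0.10 in knockout minus control.

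Of the 5 other kinesins without Kif12, limma called 1 higher (Kif2a) and 0 lower in knockout against control. This was 20%, against 14.1% of all genes. The groups did not overlap for 3, or 60%, against 32.4% of all genes, and the median was 0.55. In rescue against knockout and rescue against control limma called 0, against 2.31% and 0.126% of all genes. The medians were -0.25 and -0.11. Kif26a and Kif26b lay in the dimmest 40% of genes by the mean over 9 arrays. Both were highest on knockout array 1, where neuron and fibroblast markers were also highest. Kif26b, which in mice acts in kidney mesenchyme, measured 5.49, 5.10 and 4.99 on rescue arrays, 6.44, 5.84 and 5.64 on knockout arrays and 5.09, 5.35 and 5.47 on control arrays. Knockout arrays lay above the others, with a difference of 0.67 ± 0.22 SE from control arrays (adjusted p = 0.080) and of -0.78 ± 0.22 in rescue minus knockout (adjusted p = 0.11). Kif26a, needed for the enteric nervous system of mice, measured 5.36, 5.49 and 5.10 on rescue arrays, 6.45, 5.72 and 5.36 on knockout arrays and 5.26, 5.14 and 5.41 on control arrays, with a difference of 0.58 ± 0.25 in knockout minus control (adjusted p = 0.16). Among knockout arrays both were lowest on array 3, as were the neuron and fibroblast marker medians. The part of these markers in the result was not tested. Kif2b and Kif28 were dim on all arrays, between 2.68 and 3.40, and their differences lay between -0.18 and 0.06 over the 3 comparisons.

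Proteins that work with transport kinesins were listed separately, and 31 were measured, with kinesin light chains, dynein subunits, adaptors and microtubule-bound cofactors among them. In knockout against control arrays 4 rose and 4 fell, the median was 0.26, and 14.1% of all genes passed. Kifbp, a protein that binds and inhibits the motor domains of several kinesins, Kif1b among them, measured 10.24, 10.23 and 10.74 on rescue arrays, 9.84, 10.10 and 9.73 on knockout arrays and 10.91, 10.84 and 11.12 on control arrays. The 3 groups did not overlap. Kifbp was 2.09-fold lower in knockout than in control arrays (-1.06 ± 0.17 SE, adjusted p = 0.0056), and its difference of 0.51 ± 0.17 in rescue minus knockout did not pass (adjusted p = 0.15).

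Map7d1, of the family of microtubule proteins that recruit kinesin-1, measured 6.89, 6.84 and 6.69 on rescue arrays, 8.27, 7.64 and 7.72 on knockout arrays and 6.27, 6.74 and 6.71 on control arrays. It was 2.47-fold higher in knockout than in control arrays (1.30 ± 0.19 SE, adjusted p = 0.0043) and 2.10-fold lower in rescue than in knockout arrays (-1.07 ± 0.19, adjusted p = 0.031). Its relative Map7 was 1.54-fold lower in knockout than in control arrays (adjusted p = 0.034). The dynein intermediate chains Dync1i2 and Dync1i1 were higher in knockout arrays, by 1.28-fold (adjusted p = 0.022) and at least 1.39-fold (adjusted p = 0.016), as was the kinesin light chain Klc1, by 1.34-fold (adjusted p = 0.036). The minus-end kinesin Kifc3 was 1.38-fold lower (adjusted p = 0.047). Rhot1, which links mitochondria to motors, was 1.46-fold lower, with an adjusted p of 0.050 after rounding, just under the threshold before it. Klc1, Map7, Kifc3 and Rhot1 were named after their values were seen. Map7d1 alone passed in rescue against knockout arrays, where 2.31% of all genes passed. In rescue against control arrays 0 of the 31 passed the limma test and 3 had an unadjusted p under 0.05, against 0.126% and 6.62% of all genes.

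Of 29 measured partners of mitotic kinesins, spindle and cytokinesis genes, 1 rose and 0 fell in knockout against control arrays, where 14.1% of all genes passed, with a median of 0.40. The 1 that rose was Ect2, the exchange factor that centralspindlin recruits for cytokinesis. Ect2 measured 8.59, 7.84 and 9.15 on rescue arrays, 9.03, 8.98 and 8.78 on knockout arrays and 7.91, 8.04 and 7.47 on control arrays. It was 2.18-fold higher in knockout than in control arrays (1.13 ± 0.30 SE, adjusted p = 0.041). In rescue minus knockout limma called 0 of the 29 and 0 had an unadjusted p under 0.05, against 2.31% and 18.9% of all genes. The median was 0.28. In rescue minus control limma called 0 and 3 had an unadjusted p under 0.05, against 0.126% and 6.62% of all genes. The median was 0.66. The medians of the partners on single arrays were 0.46, 0.00 and 1.35 on rescue arrays, 0.55, 0.73 and -0.30 on knockout arrays and 0.00, 0.28 and -0.27 on control arrays. Knockout array 3 was the lowest knockout array for 27 of the 29 partners, and rescue array 3 the highest rescue array for 27. Kifc1, a minus-end-directed spindle motor outside the naming pattern, measured 7.60, 7.00 and 8.16 on rescue arrays, 8.35, 7.97 and 6.80 on knockout arrays and 6.92, 7.11 and 6.85 on control arrays. Its difference of 0.75 ± 0.40 in knockout minus control did not pass the test (adjusted p = 0.26).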

How the data were processed

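Values are log2 RMA values deposited by the authors, 1 per probe set and array. RMA and Partek 6.5 are named per the submitters' processing notes, and the part of each tool is not given in the sources used here. Values were used as deposited. The 9 columns hold 45101 probe sets, with medians of 5.93 to 6.00. In the platform annotation 34958 carried 1 symbol, 932 several and 9211 none. Each of 18193 genes was represented by its brightest single-symbol probe set among 34945 that were not array controls. One probe set shared by Kif27 and another symbol was left out. Of 36 array pairs, 0 were identical.

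Group means were fitted to all 9 arrays with limma 3.58.1 in R 4.3.3 (lmFit, eBayes), and two-sided p-values were adjusted over all genes by Benjamini and Hochberg, with a threshold of 0.05. The number of arrays limits the precision: the median SE of a log2 difference was 0.147. A fold is "at least" where the lower mean lay in the dimmest 40% of its group. Members and gene lists were chosen with earlier results of these data known, so no list is independent evidence. The genes named are Kif12, every member past the threshold, the 4 brightest mitotic and 4 brightest transport members, members whose knockout arrays span over 2 log2 units, up to 4 genes per partner list by smallest p and the 6 most like Kif12. Replicate numbers were not used to pair the arrays in this fit, and the closing section gives a check.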

Additional observations from a re-analysis of the deposited data

How the results depend on the processing

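Kif12 kept the direction of all 3 differences under every alternative. Leaving out 1 array gave -3.92 to -3.61 for knockout minus control, 2.17 to 2.55 for rescue minus knockout and -1.59 to -1.25 for rescue minus control. With the mean of the gene's probe sets these were -2.77, 1.68 and -1.09, and the transport medians were 0.13, -0.10 and 0.03. That setting called 1 member and 2656 genes in knockout against control, and 0 members and 423 genes in rescue against knockout. Without probe sets ending in _s_at or _x_at, Kif12 was at -1.78, 0.98 and -0.79. Centring the arrays gave transport medians of 0.00 (knockout minus control) and -0.14 (rescue minus knockout), and quantile normalization 0.14 and -0.15. Array weights gave 15 members called in knockout against control, with 6395 of the 18193 genes, and 6 in rescue against knockout, with 2453 genes. They gave a mitotic median of 0.56 in knockout minus control and a transport median of -0.06 in rescue minus knockout. The fibroblast covariate gave a mitotic median of -0.15 in knockout minus control and transport medians of 0.05 and -0.04. In rescue against knockout it gave 2 members called, with 974 of all genes. With only the groups compared, these counts were 0 and 30. Knockout replicate 3 as the sole knockout array, an alternative chosen after seeing the data, assumes that it varies like the other groups. It gave a mitotic median of -0.09 and a transport median of 0.04 in knockout minus control, and a transport median of -0.04 in rescue minus knockout. Leaving out 1 array gave counts of 1 to 12, 1 to 6 and 0 to 0 in knockout against control, rescue against knockout and rescue against control. Over all genes these counts ran from 936 to 4998, 105 to 2793 and 2 to 136. The mitotic medians were then 0.07 to 0.54, -0.01 to 0.53 and 0.26 to 0.89, and the transport medians 0.03 to 0.12, -0.19 to -0.01 and -0.04 to 0.01. The cause of these shifts was not tested.

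Differences of these members changed sign, all of them short of the threshold as reported. In rescue minus control, Kif1b was at 0.09 with the mean of probe sets, 0.01 with quantile normalization, 0.04 without control array 2 and 0.02 without rescue array 2, Kif22 at -0.08 without rescue array 3, and Kif5c at -0.08 with the fibroblast covariate. In rescue minus knockout, Kif21b was at 0.07 without knockout array 3, Kif22 at -0.04 and Kif11 at -0.07 without rescue array 3, and Kif23 at -0.24 with array weights, -0.22 without knockout array 3 and -0.01 without rescue array 3. In knockout minus control, Kif2c was at -0.13 without _s_at and _x_at probe sets, -0.41 with the covariate and -0.42 with knockout array 3 alone. Kif23 was at -0.40 and -0.24, and Kif11 at -0.15 and -0.09, under these last settings. Kif21b was at -0.08 with centred arrays, -0.25 with weights, -0.09 without control array 2 and -0.31 without knockout array 3. Kif22 was at 0.07 with quantile normalization, 0.06 with weights, 0.01 without control array 2 and 0.19 without knockout array 3.

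Over all arrays left out in turn, Kif21b ran from -0.31 to 0.21 and Kif22 from -0.25 to 0.19 in knockout minus control. In rescue minus knockout Kif21b ran from -0.45 to 0.07, Kif11 from -0.07 to 0.59, Kif22 from -0.04 to 0.53 and Kif23 from -0.22 to 0.56, and in rescue minus control Kif22 ran from -0.08 to 0.49 and Kif1b from -0.09 to 0.04.

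Arrays with the same replicate number did not deviate together. The correlation of their deviations was -0.22 to 0.40 and exceeded 0.1 in 2 of 9 pairs, against -0.29 to 0.36 and 6 of 18 pairs with different numbers. With the replicate number as a block, the count in knockout against control was 2 (Kif1b and Kif1c), in rescue against knockout 1 and in rescue against control 0. Over all genes these counts were 2404, 257 and 12.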
